A study of Homo sapiens with 6 samples.

Results

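Transcript abundance after transfection with control plasmids was compared with that in cells that received no plasmid. The cells were U2OS 2-6-3, a human osteosarcoma line that carries a chromosomal array of operator sites and a reporter gene, so that every library came from 1 cell line. The members were chosen by the group given in the labels and made up 4 of the 6 libraries of the series: 2 untransfected libraries and 2 libraries of mock-transfected cells. Mock cells received a plasmid for red fluorescent TetR and a plasmid for YFP with a lipid-type transfection reagent (Xtreme gene, Roche), and both groups were kept under white light overnight. The remaining 2 libraries were of cells given the light-controlled activator plasmids. Deposited means that include them served to solve the counts of each library, and a few of their values are set beside those of mock cells below. Otherwise they entered only some of the limma-voom fits. These were a fit of all 6 libraries and every fit below with 1 library left out, which kept the rest of the series. A call lost in such a fit may thus reflect the activator libraries as well as the library left out. With any 1 of the 4 libraries left out, limma-voom also called fewer of all genes than the authors' test did. Lower counts for a gene list in such a fit are thus not by themselves a result about that list. Untransfected cells received neither reagent nor plasmid, so the effects of the reagent, of the DNA and of the 2 expressed proteins cannot be told apart. The labels give no group with reagent alone. The table of the authors holds 40029 transcript entries, of which 39720 were matched to a symbol. With the entry of highest mean standing for its gene, there were 26835 genes, of which 21329 had reads and 17082 were tested by the authors.

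Lipid transfection brings plasmid DNA through endosomes into the cytosol and nucleus, where DNA and RNA sensors can signal to NF-kB and to interferon factors. NF-kB is a family of transcription factors held inactive by inhibitor proteins, and it drives genes for cytokines, survival proteins and its own inhibitors. Growth factor signalling through MAP kinases acts on AP-1 and MYC, and MYC is known for its action on genes of ribosome production and nucleotide synthesis. Osteosarcoma cells such as U2OS are of mesenchymal origin and make matrix proteins, matrix proteases and integrins.

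Sequences upstream of 5 genes are shown because the results below turn on groups of genes to which these motifs are usually assigned. They are the 190 bases just before the RefSeq start (GRCh38.p14), written 5′ to 3′ along the gene, with motif matches on either strand in capitals. CXCL8 (chr4:73740379-73740568, plus strand) and NLRP3 (chr1:247415983-247416172, plus strand) were, of the 12 genes with the largest increase, those whose RefSeq promoter held an NF-kB motif, GGNNTTTCC, or an AP-1 motif, TGANTCA. Of these 12 genes, 9 had a RefSeq promoter to search, and MMP3, TGM2 and MMP9 had none and were not searched. POLR1G (chr19:45406454-45406643, plus strand) holds the E-box CACGTG to which MYC and its relatives bind. IFIT1 (chr10:89392433-89392622, plus strand) and SAMD9 (chr7:93117980-93118169, minus strand) hold the interferon response motif AAANNGAAA. Both were picked from called members of the foreign nucleic acid sensing list that hold this motif. It stood in 11 of the 18 called members with a promoter, among them ISG20, which was called higher.
CXCL8: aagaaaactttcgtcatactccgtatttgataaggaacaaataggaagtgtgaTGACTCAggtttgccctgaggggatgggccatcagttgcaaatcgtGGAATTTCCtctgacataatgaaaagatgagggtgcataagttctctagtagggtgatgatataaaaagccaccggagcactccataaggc
NLRP3: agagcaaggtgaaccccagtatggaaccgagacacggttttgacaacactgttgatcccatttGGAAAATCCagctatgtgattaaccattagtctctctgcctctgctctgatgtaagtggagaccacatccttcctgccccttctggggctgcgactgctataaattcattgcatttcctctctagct
POLR1G: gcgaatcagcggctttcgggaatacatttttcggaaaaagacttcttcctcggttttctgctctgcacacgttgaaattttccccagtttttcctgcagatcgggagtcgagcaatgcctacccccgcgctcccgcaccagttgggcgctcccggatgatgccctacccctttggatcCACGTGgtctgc
IFIT1: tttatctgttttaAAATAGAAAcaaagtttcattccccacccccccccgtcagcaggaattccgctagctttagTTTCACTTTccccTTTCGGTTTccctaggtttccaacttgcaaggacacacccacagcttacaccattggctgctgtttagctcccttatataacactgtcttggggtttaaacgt
SAMD9: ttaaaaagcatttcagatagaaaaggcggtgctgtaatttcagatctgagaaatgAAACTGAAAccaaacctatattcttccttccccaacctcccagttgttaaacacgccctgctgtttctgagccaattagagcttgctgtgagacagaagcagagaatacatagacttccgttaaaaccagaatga
The capitals mark an AP-1 and then an NF-kB match in CXCL8, an NF-kB match in NLRP3, an E-box in POLR1G, 3 interferon response matches in IFIT1 and 1 in SAMD9. In the RefSeq table a promoter is 250 bases before to 50 after the start, and 13008 of the 17082 genes tested had one. The NF-kB motif stood in 6.47% of those promoters and in 6.26% of all 27305 promoters of the table, and the AP-1 motif in 5.06% and 7.76%. Of the 172 genes called higher with a log2 change of at least 2 per the authors' deposited table, 134 had a promoter, and 14.9% of these held the NF-kB motif and 21.6% the AP-1 motif. Of the 441 genes called with a log2 change of at most -2 per the authors' deposited table, 315 had a promoter, and 4.76% held the NF-kB motif and 9.21% the AP-1 motif. The NF-kB motif stood in 12 of 30 promoters of the NF-kB pathway list. The E-box stood in 12 of 30 promoters of the ribosome production list, against 9.72% of genes tested and 7.43% of all promoters. The interferon response motif stood in 13 of 16 promoters of the interferon-stimulated products, against 7.36% of genes tested and 10.6% of all promoters. In the 134 and 315 promoters of genes past a log2 change of 2 and -2 per the authors' deposited table, it stood in 10.4% and 9.21%. These matches describe letters and were not tested as sites.

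Depth differed somewhat among these 4 libraries. Reads summed over entries were 53596406 and 51146190 in the untransfected libraries, called a and b, and 54177551 and 44594507 in the mock libraries, also called a and b. The authors' size factors, which scale for depth, ran from 0.80 for mock b to 1.16 for untransfected a. Counts were solved from the deposited means, and levels below are normalized reads, the count divided by the authors' size factor for that library. The level of a gene is not divided by its length, so levels are compared between libraries and not between genes. Over the 12283 genes that reached 50 normalized reads in every library, the log2 ratio of one library to the other had an SD of 0.16 in the untransfected pair and 0.19 in the mock pair, and that of the group means 0.74. Whether the 2 libraries of a group came from separate cultures is not stated in the labels, and the p-values then measure only how these samples spread, which may be technical. The mesenchymal markers VIM, PDGFRA and others summed to 98517 to 117686 normalized reads per library and the epithelial markers, mainly KRT18, to 19036 to 23991. Blood markers summed to 51.3 and 54.5 in untransfected and 141 and 182 in mock libraries, with CD3E at 0, and endothelial markers to 298 and 331 and to 153 and 164, with CLDN5 at 0. The last 2 sums moved mainly with 1 gene each. Of 5 blood markers tested only CD68 was called, higher, and of 5 endothelial markers only VWF, lower. Of 9 epithelial markers tested, KRT18 was called higher and 5 were called lower. Of the 28 tested markers of those classes, 4 were called higher and 11 lower, with 2 higher by limma-voom when any 1 of the 4 libraries was left out. In RNA of whole cultures, a change in the share of cells that express a gene and a change in RNA per cell cannot be told apart. RN7SL1, RN7SL2, RMRP, RN7SK and RPPH1, short structural RNAs, took 9.51% and 11.4% of reads in untransfected and 7.30% and 10.3% in mock libraries, and their part in the results was not tested.

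A large share of the transcriptome differed, mostly by small factors. The authors' DESeq2 test called 8690 of 17082 genes (50.9%) at their adjusted p of less than 0.05, 4701 of them higher in mock cells (27.5%) and 3989 lower (23.4%). Of these, 2682 changed 2-fold or more, that is by a log2 fold change of 1 or beyond (below, log2 change) per the authors' deposited table. Per that table they made up 15.7% of the 17082 genes tested, with 979 higher (5.73% of genes tested) and 1703 lower (9.97%). Changes under 2-fold made up 69.1% of calls per the authors' deposited table. At a log2 change of at least 3 there were 58 genes higher and 110 lower, and at least 4 there were 21 and 26, per the authors' deposited table. With limma-voom on the recovered counts of the 4 libraries, 10106 of 15400 genes were called (65.6%), 5210 higher (33.8%) and 4896 lower (31.8%).

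The direction of the calls moved with the level of the gene. Among genes averaging under 50 normalized reads, 4.40% of 4042 were called higher and 13.1% lower, and among those with 50 to 500, 16.0% of 4309 were called higher and 33.2% lower. For means of 500 to 5000 the shares were 41.4% higher and 24.4% lower of 7328 genes, and for means over 5000 they were 56.9% and 17.3% of 1403. Taken as 1 class, the 8731 genes averaging 500 or more were called higher in 43.9% and lower in 23.3%, and their median log2 change was 0.15 per the authors' deposited table against a median near 0 for all genes tested. Genes averaging under 500 were called higher in 10.4% and lower in 23.5%. Lists of mostly abundant genes are set below beside 43.9% and 23.3%, and other lists beside the shares of all genes tested. Genes whose entry is a coding transcript were called in 55.9% of 13994 cases, and those whose entry is a noncoding transcript in 28.0% of 3088. All zinc finger genes of chromosome 19 with a ZNF name were called in 31.4% of 245 cases, 40 higher and 37 lower. The share was 44.1% of the 272 ZNF genes on other chromosomes and 52.8% of the 932 other genes of chromosome 19. These classes, and the coding and noncoding entries, were not matched for level, and the share called rose with level.

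**Figure D1:**
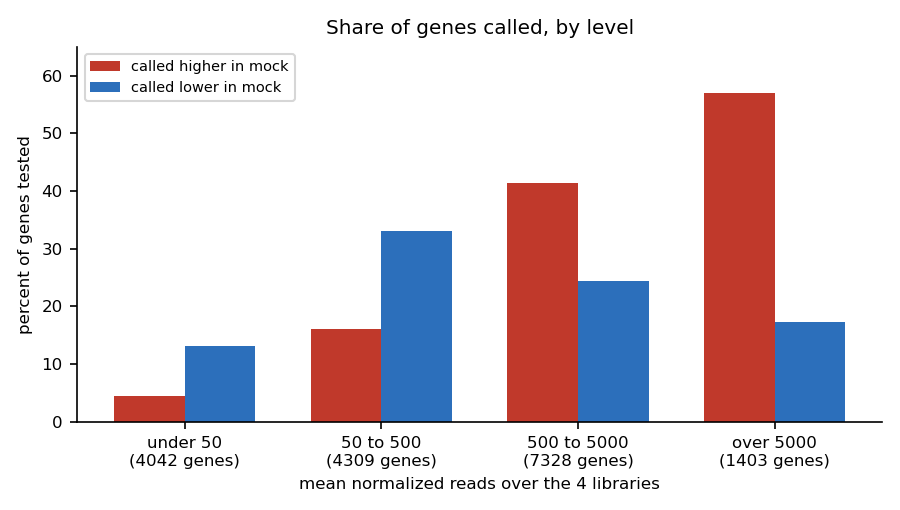
Percent of genes tested (y axis) that were called higher (red) or lower (blue) in mock cells by the authors' DESeq2 test, in 4 classes of mean normalized reads (x axis, with the number of genes). Calls of lower genes outnumber those of higher genes in the classes under 500 reads, and the order turns above it, to 56.9% higher and 17.3% lower over 5000 reads.

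By deposited change, the 2 largest increases at a mean of 500 or more were those of ESM1, a proteoglycan secreted by endothelial and other cells, at 11.3 and 7.60 normalized reads in untransfected and 3055 and 3706 in mock libraries, and MMP3, the protease stromelysin-1, at 27.7 and 26.6 and 3021 and 2673. PTX3, a secreted pentraxin of innate immunity, stood at 73.6 and 67.4 and 1534 and 1637, and all 3 were far higher in both mock libraries. MMP9, a gelatin-degrading metalloproteinase, stood at 100.4 and 98.8 normalized reads in the untransfected and 1841 and 1568 in the mock libraries. SCG5, a chaperone of neuroendocrine prohormone convertase, stood at 165 and 138 and 2406 and 2678. ALPL, the alkaline phosphatase that bone-forming cells use for mineral deposition, stood at 76.2 and 91.2 and 1028 and 1173. In each of these 3 genes both mock libraries lay above both untransfected libraries, by 17.1-fold, 16.8-fold and 13.2-fold between group means. CD274, the checkpoint ligand PD-L1, stood at 96.1 and 70.3 and 1031 and 1006 normalized reads, and KRT34, a hair keratin, at 142 and 168 and 1917 and 2111. LCP1, an actin-bundling protein best known from blood cells, stood at 69.3 and 118 and 1391 and 1753, with the widest untransfected pair of these genes. Groups that do not overlap were common, at 79.6% of the 17082 genes tested, and genes chosen for the size of their change were bound to be among these. Their log2 changes per the authors' deposited table were 4.01 (SE 0.15) for MMP9, 3.62 (SE 0.17) for ALPL, 3.51 (SE 0.17) for CD274, 3.64 (SE 0.13) for KRT34 and 3.59 (SE 0.35) for LCP1. MARCHF4, a membrane-bound ubiquitin ligase, stood at 163 and 176 and 2290.0 and 2252 normalized reads, which is 13.4-fold higher in mock cells.

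One of the largest decreases was that of LBH. This gene, for a transcription cofactor of limb and heart development, stood at 9939.8 and 9979 normalized reads in the untransfected and 447 and 505 in the mock libraries. RASSF4, a RAS association domain protein, stood at 3219.8 and 3349.8 and 214 and 196, and SMOC1, a secreted matrix protein that restrains BMP signals, at 1809 and 1849 and 126 and 92.7. Both mock libraries lay far below both untransfected libraries in all 3, which were 20.9-fold, 16.0-fold and 16.7-fold lower between group means. TET1, the dioxygenase that oxidizes methylated cytosine, stood at 1027 and 1225 and 73.5 and 70.2 normalized reads. LDLRAD4, a membrane protein that dampens TGF-beta signals, stood at 2063 and 2264 and 138 and 117, and SESN3, a stress-induced inhibitor of growth signalling, at 5654 and 6732 and 437 and 399.8. SHOC1, a meiotic crossover gene, stood at 4235 and 3478 and 243 and 222, and CLDN4, a tight junction protein, at 1897 and 1989 and 166 and 142. Their log2 changes per the authors' deposited table ran from -4.36 (SE 0.09) for LBH and -4.01 (SE 0.14) for LDLRAD4 to -3.84 (SE 0.11) for SESN3 and -3.59 (SE 0.14) for CLDN4. In ZSCAN31, a zinc finger gene, the libraries stood at 3540.1 and 3521 and 289 and 264 normalized reads, 12.7-fold lower in mock cells. The mock pair itself was wide in DRD1, a dopamine receptor, at 91.7 and 31.3 against 3068 and 3463 normalized reads in untransfected cells, and in JAKMIP2 at 90.7 and 45.1 against 1340.2 and 1449. Both mock libraries of each gene were nonetheless below both untransfected ones.

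**Figure D2:**
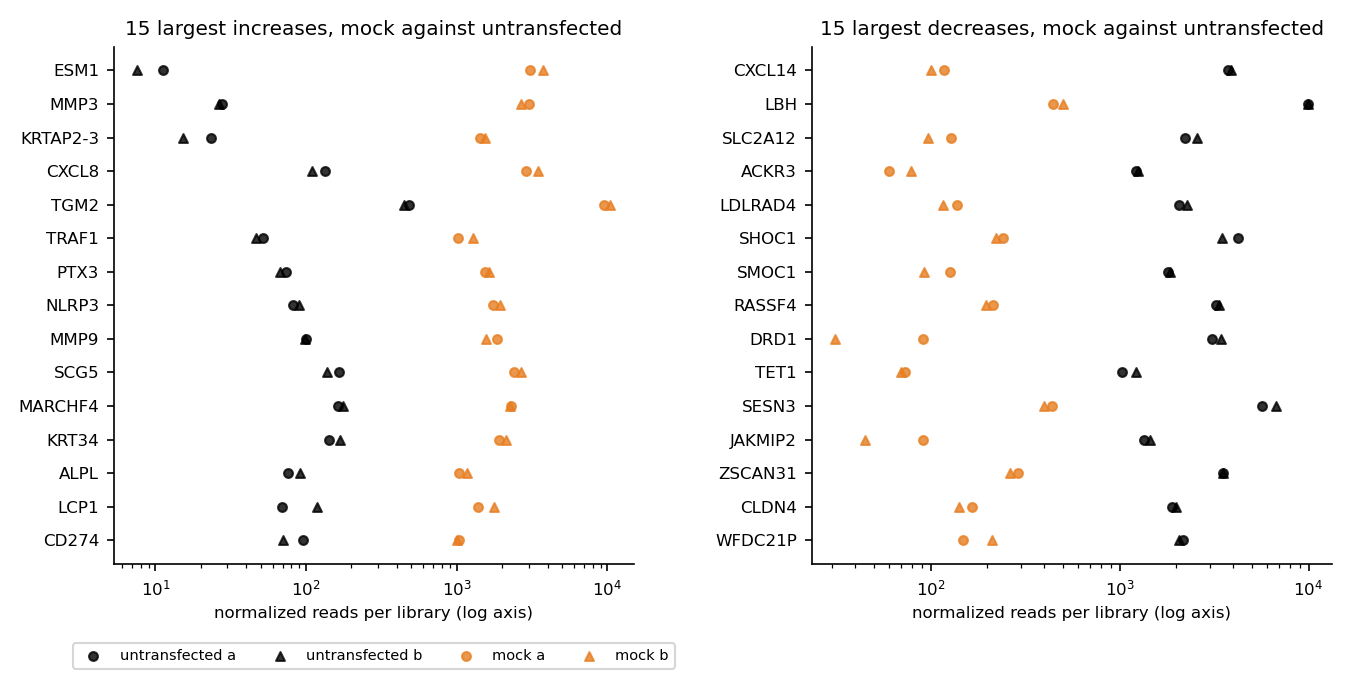
Normalized reads per library (x axis, log scale) of the 15 genes with the largest increase (left) and the 15 with the largest decrease (right) among genes of mean 500 or more, with untransfected libraries in black and mock libraries in orange, circles for library a and triangles for library b. The genes were chosen for the size of their change, and the mock pair is widest for DRD1, at 91.7 and 31.3.

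Most genes of the NF-kB pathway rose. Of 34 members tested, 26 were called higher and 2 lower, 15 of them higher by a log2 change of at least 1, and the median log2 change was 0.82 per the authors' deposited table. Of the 34, 28 had a mean of 500 or more, a level at which 43.9% of genes were called higher, 23.3% lower and 6.47% higher by a log2 change of at least 1 per the authors' deposited table. All 5 subunits rose, and by limma-voom 3 of them were called higher without mock a or without mock b. RELB, the subunit of the noncanonical arm, stood at 365 and 353 normalized reads in untransfected and 1939.5 and 2060.4 in mock libraries. NFKB1, precursor of p50, stood at 1532 and 1649 and 3758 and 4105, and NFKB2, precursor of p52, at 825 and 832 and 2115 and 2143. The mock libraries were higher in each, by 5.57-fold, 2.47-fold and 2.57-fold. Of the 10 inhibitors and feedback genes, 8 rose and none fell. TNFAIP3, the deubiquitinase A20 that ends NF-kB signalling, stood at 152 and 133 and 1357 and 1406 normalized reads, NFKBIA, the main inhibitor of NF-kB, at 884 and 949 and 1809 and 1980.2, and CYLD, another deubiquitinase, at 1696 and 1694 and 3297 and 3390.2. Their log2 changes were 3.22 (SE 0.14), 1.04 (SE 0.10) and 0.97 (SE 0.08) per the authors' deposited table, and the groups did not overlap. Upstream, MAP3K14, the kinase NIK of the noncanonical arm, stood at 369 and 335 and 927 and 1000.1 normalized reads, 2.74-fold higher in mock cells. MAP3K8 stood at 77.9 and 112 and 54.4 and 51.4 and was called lower, a call that was lost with library untransfected b, mock a or mock b left out and with no filter on low values. Among 9 survival targets 8 rose, with BIRC3, the ubiquitin ligase cIAP2, at 128 and 115 against 1060.0 and 970.1 normalized reads and BIRC2, cIAP1, at 2937 and 2648 against 6345 and 6295. TRAF1, an adaptor that pairs with these ligases, stood at 51.9 and 46.5 and 1019 and 1289.6. For these 3 genes the mock libraries were 8.35-fold, 2.26-fold and 23.4-fold higher, without overlap. TNFAIP8, the survival target called lower, stood at 223 and 269.7 and 141 and 167, and that call was lost without library untransfected b or mock a.

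Cytokine genes rose or fell by family member. Of 35 tested, 17 were called higher and 6 lower, where 27.5% and 23.4% of all genes were, with 11 and 3 past a log2 change of 1 per the authors' deposited table, and 11 of the 46 listed genes were not tested. IL24, an IL10-family cytokine, stood at 29.4 and 37.0 normalized reads in untransfected and 636 and 709 in mock libraries, and its log2 change was 4.14 (SE 0.22) per the authors' deposited table. IL7R, the receptor for IL7, stood at 1392 and 1506 and 7338 and 7368, and IL6ST, the shared receptor chain gp130, at 6633 and 6797 and 11312 and 10769.6. The mock libraries were higher in all 3, by 20.2-fold, 5.07-fold and 1.64-fold. The chemokine genes split, with 3 of 9 tested higher and 3 lower. The neutrophil chemokine CXCL8, whose upstream sequence is shown above, stood at 133 and 110.2 and 2866 and 3470.4 normalized reads, whereas CXCL14 stood at 3731 and 3870.3 and 117 and 100.3. ACKR3, a scavenging receptor for CXCL12, stood at 1222 and 1249 and 60.2 and 79.0 and was 17.8-fold lower in mock cells. NLRP3, the inflammasome sensor with the NF-kB match shown above, stood at 82.2 and 89.3 and 1738 and 1929 normalized reads. In the antigen presentation list 12 of 16 genes had a mean of 500 or more, where 43.9% of genes were called higher and 23.3% lower. Of the 16, 5 rose and 4 fell. With any 1 of the 4 libraries left out, limma-voom called 2 higher and between 0 and 3 lower. Its largest change was TAP2, a subunit of the peptide transporter, at 2636 and 2442 against 7285 and 7154.

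Genes downstream of MAP kinases rose more often than they fell, 22 of 31 against 4. Of the 31, 22 had a mean of 500 or more, where 43.9% of genes were called higher and 23.3% lower. In the authors' deposited table the median log2 change of that list was 0.88. FOSL1, an AP-1 subunit, stood at 62.3 and 65.5 normalized reads in untransfected and 555 and 623 in mock libraries, 9.21-fold higher. JUND, another subunit, stood at 2834 and 3112 and 1124 and 1292, 2.46-fold lower, and JUN at 10754 and 10544 and 10268 and 10902, where the groups overlapped. The 9 AP-1 genes thus gave 4 higher and 3 lower. Of 11 feedback inhibitors tested, 9 rose and none fell. DUSP5, a nuclear phosphatase of ERK, stood at 298 and 301 and 2016 and 2181 normalized reads, with a log2 change of 2.78 (SE 0.12) per the authors' deposited table. MYC stood at 1072 and 1013 and 5687 and 6619, 5.90-fold higher in mock cells and without overlap. EGF-family ligands rose in 5 of 7 tested genes, with a median log2 change of 1.59 per the authors' deposited table. Of the 14 tested genes of the EGF family list, 6 had a mean of 500 or more. Over all genes tested, 27.5% were called higher and 23.4% lower. AREG, coding for amphiregulin, stood at 149 and 119 and 1017 and 1093 normalized reads, EREG, for epiregulin, at 11.3 and 7.60 and 112 and 96.5, and HBEGF at 850.2 and 766 and 2909 and 3388. AREG was 7.88-fold and HBEGF 3.89-fold higher, and EREG, low in untransfected cells, had a log2 change of 2.86 (SE 0.40) per the authors' deposited table. Among receptors and their inhibitors 2 rose and 4 fell. EGFR, the receptor for those ligands, stood at 242 and 205 and 712 and 713 normalized reads, 3.19-fold higher, and ERRFI1, an inhibitor of EGFR, at 908 and 902 and 4009 and 4032, 4.44-fold higher. ERBB2 stood at 2791 and 3011 and 1520.3 and 1464 and ERBB3 at 255 and 234 and 28.6 and 31.3, both lower in both mock libraries, by 1.94-fold and 8.15-fold.

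Proteases and their regulators changed by subgroup. In plasminogen activation, which turns plasminogen into the protease plasmin, 5 of 6 genes rose and 1 fell. Of the 6, 5 had a mean of 500 or more, where 43.9% of genes were called higher and 23.3% lower. PLAU, the activator urokinase, stood at 565 and 545 normalized reads in untransfected and 2995 and 3091 in mock libraries, and its receptor PLAUR at 1935 and 1859 and 8771 and 9599. Activator and receptor were thus both higher in both mock libraries, by 5.48-fold and 4.84-fold. The other activator, PLAT, stood at 1376 and 1334 and 1030.4 and 1079, with a log2 change of -0.36 (SE 0.11) per the authors' deposited table. Of 18 metalloproteinase genes tested, 8 rose and 4 fell, and 10 of the 18 had a mean of 500 or more. MMP10, a stromelysin, stood at 7.79 and 14.2 and 37.2 and 58.9 normalized reads, and MMP1, the interstitial collagenase, had no read in untransfected libraries and 33.4 and 27.6 normalized reads in mock libraries, at least 22.4-fold higher against the floor of 3 counts over the untransfected pair. MMP2, a second gelatinase beside MMP9, stood at 2780.0 and 2898 and 1368 and 1272, and the membrane-bound MMP15 at 918 and 1064 and 142 and 196. Both were lower in both mock libraries, by 2.15-fold and 5.87-fold. The inhibitors also differed, with TIMP1 at 2504 and 2717 against 7426 and 8079 normalized reads and TIMP2 at 3969 and 4245 against 1957 and 1968. TIMP1 was 2.97-fold higher and TIMP2 2.09-fold lower in mock cells.

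Matrix genes rose and fell in nearly every class. Of 61 matrix genes tested, 20 rose and 29 fell, 13 and 14 of them past a log2 change of 1 per the authors' deposited table. Of the 61, 45 had a mean of 500 or more, where 43.9% of genes were called higher and 23.3% lower. Among laminins, LAMB3, a beta chain, stood at 12227 and 12924 normalized reads in untransfected and 29830.1 and 32037 in mock libraries, 2.46-fold higher. LAMA5, an alpha chain, stood at 4632 and 3990.0 and 658 and 643 and was 6.63-fold lower. Syndecans, membrane heparan sulfate proteoglycans, also parted. SDC4 stood at 5261 and 5372 and 19133 and 21762 normalized reads, with a log2 change of 1.93 (SE 0.08) per the authors' deposited table, and SDC2 at 6142 and 6366 and 932 and 1048, with -2.64 (SE 0.09) in the same table of the authors' deposited values. Of 19 collagen genes 7 rose and 9 fell. COL4A2, of basement membrane collagen, stood at 20662 and 21147 and 37906 and 38411 normalized reads, and COL3A1, a fibrillar collagen, at 797 and 830.1 and 146 and 173. The first was 1.83-fold higher and the other 5.10-fold lower, without overlap. Crosslinking enzymes gave 2 higher and 6 lower of 11, with LOXL4, a lysyl oxidase, at 10078 and 11093 and 1919 and 1986, and TGM2, a transglutaminase, at 479.6 and 444 and 9533 and 10469. Integrin genes gave 7 higher and 5 lower of 18, and 10 of the 18 had a mean of 500 or more. ITGA2, a collagen receptor chain, stood at 308 and 346 and 2078 and 1892 normalized reads, 6.07-fold higher. ITGB4, which pairs with ITGA6 to bind laminin, stood at 836 and 898 and 79.3 and 97.8, 9.80-fold lower. ITGB1, a beta chain, was not called, and its libraries stood at 30437 and 28433 and 32540.2 and 31091.

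Of 31 actin and contractility genes 18 rose and 7 fell, and of the 31, 28 had a mean of 500 or more, where 43.9% and 23.3% did. Without untransfected a, limma-voom called 11 higher and 4 lower, and without untransfected b 4 lower. Of these genes, TAGLN, an actin-binding protein of smooth muscle, stood at 4776 and 4993 normalized reads in untransfected and 19121 and 22470.5 in mock libraries, ACTN1, an actin crosslinker, at 16431 and 17017 and 38290.1 and 41785, and TPM1, a tropomyosin, at 26682 and 26019 and 10798 and 11037. TAGLN was 4.26-fold and ACTN1 2.39-fold higher, and TPM1 was 2.41-fold lower, each without overlap. The YAP and TEAD list, of factors that respond to cell tension and density and of their targets, gave 13 higher and 7 lower of 23, 22 of them at a mean of 500 or more. Of its 13 targets 9 rose and 4 fell, and of its 10 factors 4 rose and 3 fell, the latter near the 43.9% of genes at such levels. CCN2, a secreted matricellular protein, stood at 3304 and 3619.6 and 12247 and 12984, 3.64-fold higher. AJUBA, a LIM protein, stood at 9396 and 9695 and 5139.6 and 4957, 1.89-fold lower. The cofactor VGLL3 stood at 1229 and 1237 and 5097 and 4999 normalized reads, 4.09-fold higher, and TEAD2 at 1826 and 1787 and 618 and 739, 2.66-fold lower.

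Genes of ribosome production rose almost without exception. All 38 members tested had a mean above 500, and 37 were called higher and 1 lower, where 43.9% of genes at such levels were called higher. A log2 change of at least 1 per the authors' deposited table was reached by 29 of them, against 6.47% of genes at such levels, and the median was 1.22. All 24 processing factors rose. RRP12, which acts in small subunit maturation and export, stood at 2441 and 2459.9 normalized reads in untransfected and 10255 and 11367 in mock libraries, 4.41-fold higher. RRS1, of large subunit assembly, stood at 462 and 411 and 1792 and 1842, and DDX21, a nucleolar RNA helicase, at 10069 and 9642 and 31162 and 33231. The 2 libraries of each group lay close together and the groups did not overlap. The long-known nucleolar proteins changed less, with NCL, nucleolin, at 11773 and 11835 and 24289 and 24972 normalized reads, NPM1, nucleophosmin, at 12871 and 13406 and 22476 and 23730.0, and FBL, fibrillarin, at 6186 and 6401 and 9448 and 10450.0. Their log2 changes were 1.06 (SE 0.06), 0.81 (SE 0.07) and 0.66 (SE 0.08) per the authors' deposited table. Of 14 genes for RNA polymerases I and III and their factors 13 rose. POLR1G, the polymerase I subunit with the E-box shown above, stood at 1236 and 1259 and 3998 and 4369, 3.35-fold higher. UBTF, the factor that marks ribosomal gene chromatin, stood at 7605 and 7872 and 6427 and 6446 and was called lower, a call that was lost without library untransfected b.

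Members of further biosynthesis lists rose by smaller factors, and nearly all had a mean of 500 or more, where 43.9% of genes were called higher and 23.3% lower. Of 22 genes of nucleotide and polyamine synthesis, 20 rose and none fell, with a median log2 change of 0.76 per the authors' deposited table, and 21 of them had a mean above 500. CTPS1, which makes CTP, stood at 4100.2 and 3967 normalized reads in untransfected and 12374 and 12910.3 in mock libraries. ODC1, the first enzyme of polyamine synthesis, stood at 16944 and 17701 and 44218 and 50838, and SRM, spermidine synthase, at 654 and 688 and 1375 and 1558. The mock libraries were higher by 3.13-fold, 2.74-fold and 2.19-fold, and the call of SRM was lost without mock b. IMPDH2, a purine enzyme, stood at 14357 and 15313 and 14159 and 15502, and its groups overlapped. Protein synthesis gave 29 higher and 1 lower of 34, and none lower by limma-voom when any 1 of the 4 libraries was left out, and EIF3B, an initiation factor subunit, stood at 23230.0 and 24574 and 47652 and 52141 normalized reads. Nuclear transport gave 18 higher and none lower of 20, with IPO4, an importin, at 2623 and 2704 and 6035 and 6174. All 8 subunits of the CCT chaperonin, which folds actin and tubulin, rose, up to a log2 change of 0.67 (SE 0.07) for CCT2 per the authors' deposited table. HSPA8, the constitutive heat shock protein, stood at 73564 and 74730.5 and 136838 and 159728 normalized reads, and CRYAB, a small heat shock protein, at 2375 and 2329.8 and 665 and 731. HSPA8 was 2.00-fold higher and CRYAB 3.37-fold lower. Proteasome subunits rose in 21 of 27 cases and fell in 2, and 13 were called higher by limma-voom without untransfected a. PSMD2, of the regulatory particle, stood at 16793 and 17770.1 and 41773 and 44847, 2.51-fold higher, and PSMB9, an immunoproteasome subunit, at 184 and 196 and 72.6 and 70.2, 2.66-fold lower. Nuclear-encoded respiratory chain subunits, all with a mean above 500, gave 7 higher and 4 lower of 24, beside 43.9% and 23.3% of genes at such levels. By limma-voom 2 of them were called higher without untransfected a, untransfected b or mock b, and 1 lower without untransfected b or mock a.

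**Figure D3:**
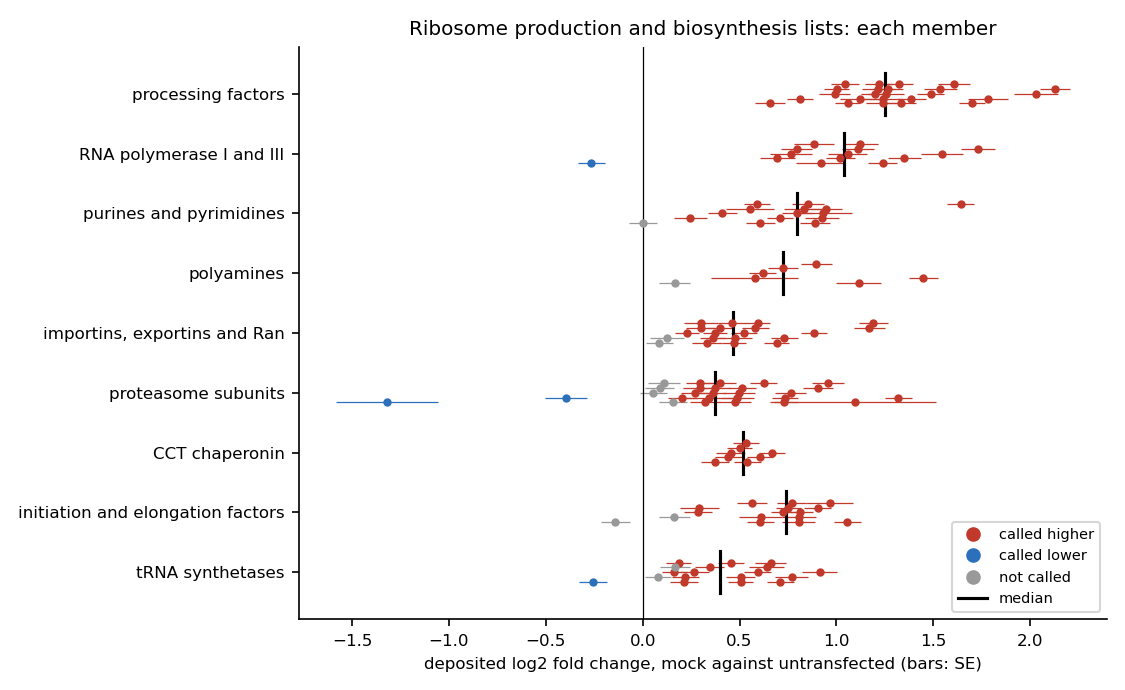
Log2 fold change of mock against untransfected cells per the authors' deposited table (x axis, bars are SE) for each tested member of 9 roles (y axis), coloured by call, with the median as a black line. Ribosome production genes lie farthest to the right, with UBTF as the 1 member of that list called lower, and the medians of the other roles lie between 0 and 1.

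Supply of amino acids and sugar was mixed. Of 30 amino acid genes, 23 had a mean of 500 or more, where 43.9% of genes were called higher and 23.3% lower. Of 30 genes of amino acid supply 12 rose and 13 fell, and 8 were called lower by limma-voom without mock a. SLC7A5, a transporter of large neutral amino acids, stood at 8234 and 8589 normalized reads in untransfected and 21262 and 23894 in mock libraries and its partner SLC3A2 at 10929 and 10945 and 24336 and 26636. The pair was higher by 2.68-fold and 2.33-fold. PHGDH, the first enzyme of serine synthesis, stood at 9826 and 10881 and 4463 and 4936, 2.20-fold lower. Of 21 glycolysis genes, 19 of them at a mean of 500 or more, 15 rose and 3 fell. By limma-voom, 5 were called higher without untransfected a, 7 without untransfected b and 6 without mock b, and 1 lower without untransfected b. HK2, an inducible hexokinase, stood at 502 and 540.4 and 3955 and 4051 normalized reads, with a log2 change of 2.92 (SE 0.09) per the authors' deposited table, while PFKFB4, a regulator of phosphofructokinase, stood at 606 and 605 and 349.5 and 276.

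Sterol and fatty acid genes fell in 23 of 33 cases and rose in 6, and 30 of them had a mean of 500 or more, where 23.3% of genes were called lower and 43.9% higher. By limma-voom 2 members were called higher without untransfected a, untransfected b or mock b. INSIG1, which retains the sterol sensor complex, stood at 2273 and 2132 normalized reads in untransfected and 581 and 499 in mock libraries. FADS2, a fatty acid desaturase, stood at 18673 and 19883 and 5156 and 5773, and LSS, lanosterol synthase, at 5066 and 4490.5 and 2679.6 and 2668. Both mock libraries were lower in each, by 4.08-fold, 3.53-fold and 1.79-fold. Among the exceptions, HMGCS1, an early cholesterol enzyme, stood at 12085 and 10829 and 15390.1 and 14766 and was called higher. That call was lost when any 1 of the 4 libraries was left out.

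Anti-apoptotic genes of the BCL2 family rose in 5 of 5 cases. Of the 16 genes of the family tested, 11 had a mean of 500 or more, where 43.9% of genes were called higher and 23.3% lower. BCL2A1 stood at 1.73 and 0.95 normalized reads in untransfected and 624 and 871 in mock libraries, BCL2L1, coding for BCL-XL, at 2446 and 2477 and 4081 and 4129.6, BCL2 at 273 and 258 and 511 and 544 and MCL1 at 8243 and 8698 and 14829.6 and 15656. All mock libraries lay above the untransfected ones. Effectors and BH3-only genes gave 3 higher and 5 lower of 11. BID stood at 954 and 946 and 2002 and 2436, 2.34-fold higher, and BCL2L11, coding for BIM, at 842 and 865 and 242 and 248, 3.49-fold lower. BBC3, coding for PUMA, had a log2 change of -0.94 (SE 0.14) per the authors' deposited table. CDKN1A, the CDK inhibitor p21, and MDM2, a ubiquitin ligase, were not called, with CDKN1A at 6069 and 6200.1 and 6074 and 6323 normalized reads and MDM2 at 6227 and 6147 and 6096 and 5705. TNFRSF10B, the TRAIL receptor DR5, stood at 2842 and 2389 and 6686 and 6546, 2.53-fold higher.

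Inhibitors of the cell cycle fell. Of 9 tested, 7 were called lower and none higher, with 5 past a log2 change of -1 and a median of -1.16 per the authors' deposited table. Of the 9, 7 had a mean of 500 or more, where 23.3% of genes were called lower and 43.9% higher. CDKN1C, the CDK inhibitor p57, stood at 884 and 1076 normalized reads in untransfected and 141 and 153 in mock libraries, CDKN1B, p27, at 3747 and 3995 and 1010.3 and 978, and CDKN2B, p15, at 705 and 754 and 131 and 102. CDKN2C, p18, stood at 1679 and 1787 and 415 and 412. All 4 were lower in both mock libraries, by 6.66-fold, 3.89-fold, 6.28-fold and 4.19-fold. Of 17 growth arrest genes, many of them targets of FOXO factors, 13 fell and 3 rose, and 1 was called higher by limma-voom without untransfected a. Besides SESN3 these included CCNG2, an atypical cyclin of resting cells, at 1524 and 1683 against 296 and 213, and PIK3IP1, an inhibitor of PI3 kinase, at 413 and 497 against 43.9 and 31.3. ARRDC4, an arrestin-domain gene of the same list, stood at 177 and 183 and 415 and 485 and rose. Of 11 cyclins and kinases 6 rose and 2 fell, and 3 were called higher by limma-voom without untransfected a, untransfected b or mock b. CCND1, cyclin D1, stood at 10276 and 10730.5 and 17585 and 18505 normalized reads and CDC25A, a CDK-activating phosphatase, at 2984 and 2785 and 5522 and 6046, and E2F2 at 1183 and 1159.7 and 408 and 316. The first pair was higher by 1.72-fold and 2.01-fold, and E2F2 was 3.24-fold lower. DNA replication, all members with a mean of 500 or more, gave 3 higher and 9 lower of 22, none past a log2 change of 1 either way per the authors' deposited table, and mitosis, at the same levels, 2 higher and 7 lower of 20. At such levels 43.9% of genes were called higher and 23.3% lower. No mitosis gene was called higher by limma-voom when any 1 of the 4 libraries was left out. MCM6, a helicase subunit, stood at 3372 and 3295 and 2016 and 2010.3 normalized reads and KIF20A, a mitotic kinesin, at 6416 and 6740.5 and 3266 and 3187.

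Wnt genes fell more often than they rose. Of 46 tested, 24 were called lower and 7 higher, 14 and 3 of them past a log2 change of 1 per the authors' deposited table, where 23.4% of all genes were called lower. WNT11 stood at 776 and 794 normalized reads in untransfected and 8.59 and 5.01 in mock libraries, WNT10B at 179 and 163 and 362 and 459 and WNT5A at 1193 and 1144 and 1346 and 1301. Of 11 ligands tested 5 were called lower, WNT11 among them, and 1 higher, WNT10B, by 2.40-fold, and WNT5A was not called. RNF43, a ligase that clears Wnt receptors and is itself a Wnt target, stood at 867 and 919 and 22.0 and 12.5 normalized reads, 51.8-fold lower. DKK1, a secreted inhibitor, stood at 2.60 and 1.90, from 3 and 2 reads, and 22.9 and 23.8, with a log2 change of 1.83 (SE 0.53) per the authors' deposited table, and its relative DKK3 at 10405 and 10752 and 6809.8 and 6961, 1.54-fold lower. CTNNB1, the nuclear effector beta-catenin, was not called, at 20711 and 22118 and 19489 and 21701, and its partner LEF1 rose 1.94-fold, from 185 and 207 to 389.6 and 369.7.

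In the BMP and TGF-beta list, 25 of 48 fell and 8 rose, with a median log2 change of -0.44 per the authors' deposited table. Of the 48, 30 had a mean of 500 or more, where 23.3% of genes were called lower and 43.9% higher. SMAD6, an inhibitory SMAD that BMP signals induce, stood at 423 and 478 normalized reads in untransfected and 36.3 and 25.1 in mock libraries, INHBE, an activin chain, at 309.9 and 337 and 30.6 and 25.1, and CHRD, the BMP antagonist chordin, at 383 and 312 and 96.5 and 70.2. Each was lower in both mock libraries, by 14.7-fold, 11.6-fold and 4.17-fold. BMP2 stood at 248 and 274 and 587 and 697, 2.46-fold higher, and ENG, a coreceptor named endoglin, at 73.6 and 58.9 and 247 and 286, 4.02-fold higher. ID3, a target of BMP signals, stood at 1180.0 and 1224 and 1708 and 1558, with a log2 change of 0.44 (SE 0.10) per the authors' deposited table. Notch genes gave 3 higher and 6 lower of 19, with 1 called higher by limma-voom without untransfected b or mock b. Of the 19 Notch genes, 8 had a mean of 500 or more, and 27.5% and 23.4% of all genes were called higher and lower. NOTCH3 stood at 1738 and 1843 and 327 and 331 normalized reads, 5.45-fold lower, and HES1, a Notch target, at 1893 and 1913 and 829.9 and 797, 2.34-fold lower.

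Genes of interferon response did not rise as a group. Of 19 interferon-stimulated products tested, 1 rose and 9 fell, with a median log2 change of -0.93 per the authors' deposited table. Of the 19, 2 had a mean of 500 or more, and genes under that level were called higher in 10.4% and lower in 23.5%, with a median log2 change of -0.21 per the authors' deposited table. IFIT1, which binds foreign RNA caps, stood at 411 and 438 normalized reads in untransfected and 54.4 and 42.6 in mock libraries, SAMD9, a restriction factor, at 1166 and 1186 and 265 and 201, and its neighbour SAMD9L at 309 and 307 and 128 and 58.9. Both mock libraries lay below both untransfected libraries in all 3, by 8.75-fold, 5.05-fold and 3.30-fold. IFI44L stood at 27.7 and 35.1 and 5.73 and 6.27, and ISG15, a ubiquitin-like modifier, at 407 and 427 and 286 and 293, with a call of lower that was lost without untransfected b or mock a. ISG20, an RNA exonuclease, was the 1 product called higher, at 90.9 and 106 and 138 and 170.4, and that call was lost without library untransfected a, untransfected b or mock b, with no filter and with centring. Sensors and adaptors gave 4 higher and 4 lower of 17, among them IFIH1, a sensor of double-stranded RNA, at 193 and 179 and 101 and 62.7, 2.27-fold lower, and MAVS, its adaptor, which was not called at 2109 and 2247 and 2292 and 2258. The factor IRF1 stood at 394 and 417 and 626 and 627, 1.55-fold higher, and IRF9 at 373 and 405 and 189 and 160.4, 2.23-fold lower.

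**Figure D4:**
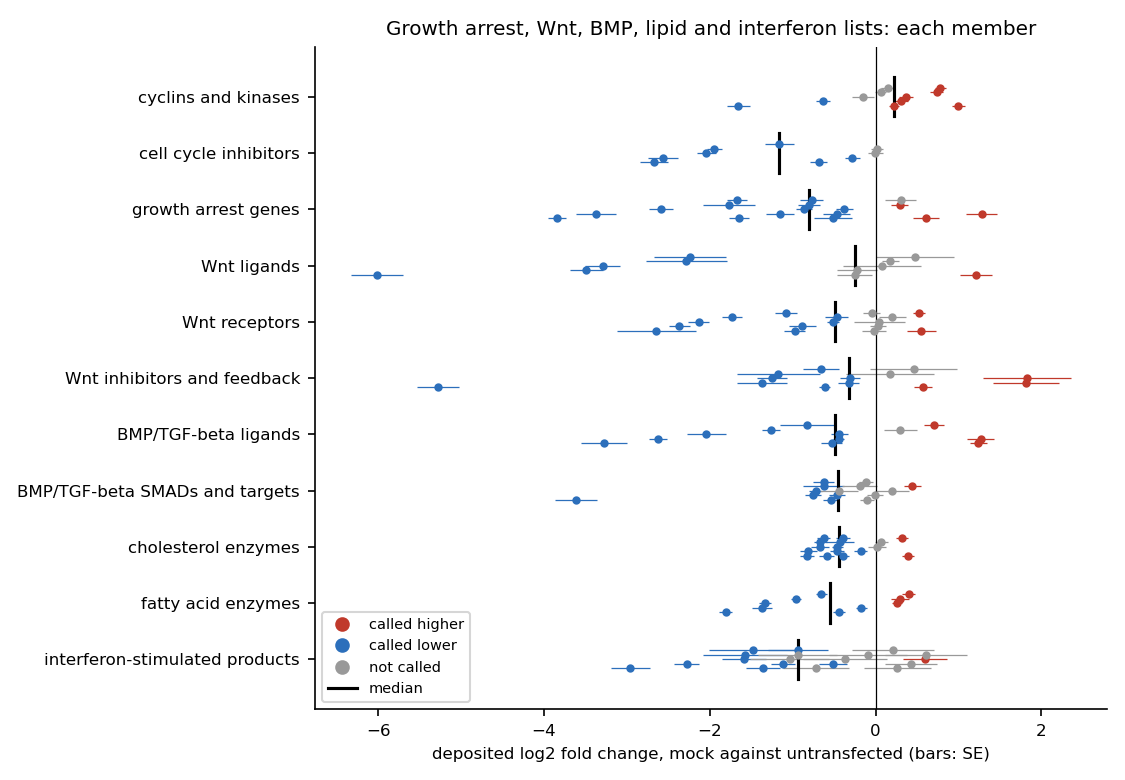
Log2 fold change of mock against untransfected cells per the authors' deposited table (x axis, bars are SE) for each tested member of 11 roles of the cell cycle, Wnt, BMP and TGF-beta, lipid and interferon lists (y axis), coloured by call, with the median as a black line. The medians of all roles but the cyclins and kinases lie below 0, from -0.25 for Wnt ligands to -1.16 for cell cycle inhibitors.

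Stress genes divided by type, in lists whose tested members mostly had a mean of 500 or more. At that level 43.9% of genes were called higher and 23.3% lower. Of 7 metallothionein and zinc genes tested 5 rose and none fell, and MT2A, a metal-binding protein, stood at 2561 and 2722 normalized reads in untransfected and 15262 and 17604 in mock libraries, 6.22-fold higher. Of 19 genes of the NRF2 pathway, which answers oxidants, 8 rose and 6 fell, and 2 were called lower by limma-voom without untransfected b or mock a. TXNRD1, thioredoxin reductase, stood at 20368 and 20423 and 50833 and 51363, 2.51-fold higher, HMOX1, heme oxygenase, at 1166 and 1148 and 2222 and 2331, 1.97-fold higher, and AKR1C3, an aldo-keto reductase with close relatives that can share its reads, at 305 and 320.1 and 43.9 and 62.7, 5.86-fold lower. NQO1, a widely used NRF2 target, had a log2 change of -0.20 (SE 0.08) per the authors' deposited table, a call lost without untransfected b or mock a. In the unfolded protein list 12 of 20 rose and 3 fell. By limma-voom 5 were called higher without untransfected a, 6 without untransfected b and 7 without mock a or mock b. Its members include PPP1R15A, a stress phosphatase subunit, at 1165 and 1156 and 4528 and 4763 and DDIT4, an inhibitor of mTOR, at 3100.3 and 3399 and 903 and 922. The first was higher and the other 3.56-fold lower. Lysosome and endocytosis genes, on the route of lipid-delivered DNA, gave 14 higher and 12 lower of 36, none past a log2 change of 1 per the authors' deposited table. By limma-voom 7 were called higher without untransfected a or mock b and 9 without untransfected b.

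Lists of cell identity genes held calls in both directions. Of 13 genes of the osteoblast lineage 5 rose and 2 fell, and of 16 neural and stem factors 5 rose and 5 fell, where 50.9% of all genes were called. Without untransfected b or mock a, limma-voom called 3 osteoblast genes higher. RUNX2, the master factor of osteoblasts, stood at 505 and 552 normalized reads in untransfected and 89.8 and 86.5 in mock libraries, 5.99-fold lower, and SP7, the factor after it, had 1 read in all 4 libraries. SP7 was thus at the limit of detection in both groups, whereas the osteoblast product ALPL was higher, as given above. FOXD1, a forkhead factor of stromal cells, stood at 1736 and 1957 and 16124 and 18505, 9.38-fold higher, and SOX2, a factor of stem cells, at 526 and 664 and 24.8 and 6.27, 38.3-fold lower with a wide mock pair. PDGFRA, a receptor of mesenchymal cells, stood at 1055 and 1090.3 and 137 and 104, 8.92-fold lower, and VIM, the mesenchymal filament, at 50216 and 53769 and 56048 and 63197, called higher per the authors' deposited table and with no call by limma-voom. CD68, a lysosomal protein used as a macrophage marker, stood at 18.2 and 27.5 and 98.4 and 145, and VWF, an endothelial marker, at 173 and 187 and 23.9 and 13.8. The part of other cell types in these results was not tested. DBP, a circadian output factor, stood at 629 and 724 and 49.7 and 31.3 normalized reads, 16.7-fold lower. Its list gave 3 higher and 6 lower of 17, where 27.5% of all genes were called higher and 23.4% lower. Either way, 52.9% of the list was called, beside 50.9% of all genes. Fewer of the list were called higher by limma-voom when any 1 of the 4 libraries was left out.

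Noncoding RNAs gave 10 higher and 3 lower of 20 tested in the list of long noncoding RNAs. Of the 20, 13 had a mean of 500 or more, where 43.9% of genes were called higher and 23.3% lower. Among all genes whose entry is a noncoding transcript, of any level, the shares were 14.3% and 13.7%. By limma-voom 1 was called lower without untransfected b or mock b. SNHG15, a host of small nucleolar RNAs, stood at 412 and 257 normalized reads in untransfected and 1009 and 1026 in mock libraries, GAS5, another host, at 2175 and 1958 and 3184 and 2601, and NEAT1, the scaffold of paraspeckles, at 1151 and 1039 and 1061 and 847. SNHG15 was 3.04-fold and GAS5 1.40-fold higher, and NEAT1 was not called. The call of GAS5 was lost without untransfected a, untransfected b or mock a. For IL7R, IL6ST, ITGA2 and IPO4 the entry with the most reads is a noncoding variant of a coding gene. Outside the list, ZNF542P, a zinc finger pseudogene transcript, stood at 713 and 688 and 4675 and 4833, 6.79-fold higher, and LINC00941 at 35.5 and 37.0 and 249 and 254, 6.94-fold higher. PAX8-AS1, antisense to PAX8, stood at 25.1 and 23.7 and 391 and 510.1, and WFDC21P, a pseudogene transcript, at 2175 and 2063 and 149 and 211. Whether reads were counted by strand is not given in the sources used here, so antisense values may hold reads of the other gene.

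Some genes had reads in only 1 group. Of the genes tested, 24 had no read in either untransfected library and 44 none in either mock library. The genes named here were chosen after their values were seen, as those with the highest mean of each kind. LCT-AS1 stood at 67.8 and 56.4 normalized reads in the mock libraries, at least 45.7-fold above the floor that 3 counts over the untransfected pair give. TMT1A, which stood at 78.8 and 79.8 in the untransfected libraries, had no read in mock cells and was at least 48.8-fold lower against the floor of 3 counts over the mock pair. These intervals and floors cover counting error only.

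Transcript entries of 1 gene seldom disagreed. Of 5043 genes with 2 or more tested entries, 3 had entries called in opposite directions, and none of them had both past a log2 change of 1 per the authors' deposited table. In CNTN1, a neural adhesion gene, the entry NM_001843.3 stood at 234 and 216 normalized reads in untransfected and 572 and 653 in mock libraries, and NM_001256064.1, at an overlapping position, at 64.9 and 50.3 and at 24.8 and 26.3. In RGS3, a regulator of G protein signalling, NM_001276262.1 rose from 506 and 572 to 820.3 and 853 normalized reads while NM_001322214.1, which does not overlap it, fell from 229 and 232 to 83.1 and 73.9. TXNRD2 was the third.

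The reporter of the array was read at a low level in both groups. ECFP-SKL, the cyan reporter protein, stood at 38.1 and 35.1 normalized reads in untransfected and 85.9 and 80.2 in mock libraries, and the MS2 loop sequence at 113 and 76.9 and at 198 and 155. Both mock libraries were higher for each, with log2 changes of 1.04 (SE 0.35) and 0.84 (SE 0.27) per the authors' deposited table. YFP is close in sequence to ECFP and came with a mock plasmid, so the reads of the 2 cannot be told apart here.

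The cells given the activator plasmids share the untransfected controls with the mock cells, so their values are set side by side only. For RRP12 the log2 change against untransfected cells was 2.13 (SE 0.08) in mock and 2.03 in activator-transfected cells, for IFIT1 -2.96 (SE 0.23) and -3.04, for NOTCH3 -2.41 (SE 0.12) and -2.13, and for MMP9 4.01 (SE 0.15) and 3.13, all per the authors' deposited tables. Directly between the 2 transfected groups, 10 of 15275 genes were called per the authors' deposited table, among them MMP9, with a log2 change of -0.55. One of the activator libraries holds 9579278 reads, far fewer than the others, and a small number of calls does not show that the 2 groups are alike.

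**Figure D5:**
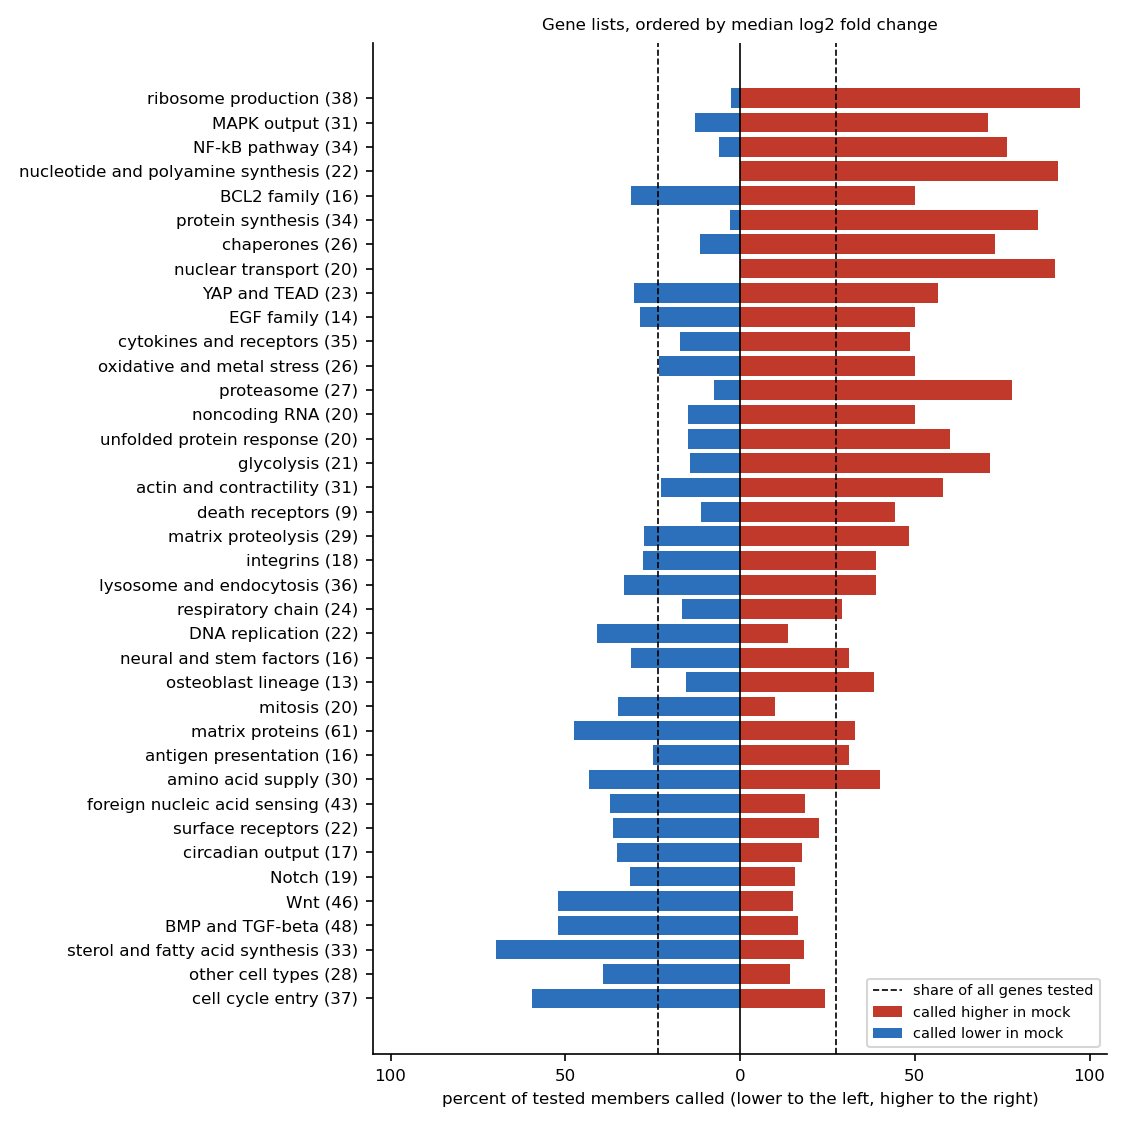
Percent of tested members called higher (red, to the right) or lower (blue, to the left) in mock cells by the authors' DESeq2 test (x axis) for 38 gene lists (y axis, members tested in parentheses), ordered by median log2 change, with dashed lines at the shares of all genes tested, 27.5% higher and 23.4% lower. Ribosome production stands at the top and cell cycle entry, with 22 of 37 lower, at the foot.

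Over all lists, 1019 of 1086 distinct genes were tested, 454 were called higher and 294 lower. The ordering of lists by their median put ribosome production, MAPK output, the NF-kB pathway and nucleotide synthesis first, and the cell cycle, sterol, BMP and Wnt lists among the last.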

How the data were processed

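RNA of U2OS 2-6-3 cells was isolated and made into strand-marked libraries with commercial kits (NucleoSpin RNA Plus, NEBNext Ultra II Directional), per the labels' protocols. The submitters' processing notes list Bowtie, STAR, DESeq2 and the build hg38. Which aligner served which step, the annotation, and any use of strand in counting were not given in the sources used here. Per the file headers, the authors deposited for each transcript entry a mean signal of normalized read counts, a log2 fold change with its standard error, a Wald score, a p-value and an adjusted p-value. The authors deposited 1 table per comparison, each fitted on 4 libraries. The deposited log2 values are shrunk toward 0, since they are smaller than those from the recovered counts, and so understate changes of low or variable genes.

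Whole counts of each library were solved from the 3 deposited means. All 30527 entries with reads met the means within a relative tolerance of 1e-14, and the same steps returned the right counts for 5973 of 5973 simulated entries. Which replicate number a recovered library has is not known, so the deeper of a group is called a. Entries matched no symbol in 309 cases, with 0.0841% of reads. Symbols came from RefSeq and, for 527 entries, GENCODE 29 alone. The 2 libraries of a group differed beyond counting noise (chi-square per gene 13.5 for untransfected, 28.4 for mock), so none is a copy. These averages are weighed most by abundant RNAs such as the short structural RNAs, so they do not describe a typical gene. They do not show whether the cultures were separate.

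The authors' DESeq2 result at an adjusted p under 0.05 is the main test. Counts recovered from the means were tested as an alternative with limma-voom (limma 3.58.1, R 4.3.3) on genes with a mean of at least 10. It was tested on simulated data drawn for mock against untransfected cells over 15396 genes. There it called 88% of the 100 genes raised 2-fold, 88% of the 100 set to 0.5 of their level, and 10 others falsely. Further alternatives changed the threshold, the filter, the entries used, the centring and the libraries kept. Fits with 1 library left out were made on the rest of the series, activator libraries included. Named genes were the 15 largest increases and 15 largest decreases at a mean of at least 500, the extreme and most abundant members of each list role, the 5 noncoding genes with the largest change each way at a mean of at least 100, genes whose entries differ in direction, and a set given whatever its result. Beyond this rule, and chosen after their values were seen, are NFKB2, NFKBIA, BIRC3, PLAU, PLAUR, EREG, EGFR, ERBB2, CDKN1B, CDKN2B, CDKN2C, CCND1, CCNG2, PIK3IP1, RRS1, NPM1, NCL, FBL, BBC3, BCL2L11, BCL2, BCL2L1, SAMD9L, IFI44L, ISG15, SRM, HMOX1, NQO1, SNHG15, GAS5, NEAT1, MMP1, MMP2, MMP10, and the POLR1G promoter. Some genes that meet the rule are given only in counts, and a few are not reported here. The members and the gene lists were chosen with earlier results of these data known, so counts over lists are descriptions. Other steps ran in Python 3.11.15 with pandas 2.3.3, numpy 2.4.6 and scipy 1.17.1, and plots were drawn with matplotlib 3.10.9.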

Additional observations from a re-analysis of the deposited data

How the results depend on the processing

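Recounting all 25011 tested entries, each on its own, raised the number lower to 6088, the number past 2-fold to 4074 with 2626 of them lower, and list members higher to 691, since a gene can then count more than once. No other alternative moved these totals by more than 1.5 times. Counts of single lists moved more: of 76, 20 moved by over 1.5 times without untransfected b, 15 without mock b, 14 without untransfected a and 12 without mock a. With each library of the series left out in turn, limma-voom called between 6633 and 10067 genes, between 3336 and 5190 higher and between 3288 and 4877 lower. In the same fits, 2514 to 3064 genes changed 2-fold or more, 911 to 1090 higher and 1603 to 1974 lower, and 354 to 461 list members rose and 239 to 326 fell. Each of these fits held the rest of the series, activator libraries included, and the lone library of a group was assumed to vary like the other groups. With no library left out, limma-voom called 8776 of 14884 genes on all 6 libraries and 10106 of 15400 on the 4 libraries. Lost calls are thus not due to the library left out alone. Of 262 called genes followed, none changed sign and 37 lost their call under 1 or more alternatives, 30 of them without untransfected b and 28 without mock a. Centring shifted log2 values by 0.06 and called 4200 genes higher and 4444 lower. No paired analysis was possible because the recovered libraries carry no replicate number, so which libraries would form a pair is not known. With 2 libraries a group, a missing call may reflect limited depth or replication. Genes under 50 normalized reads were called least often.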
